A study of Mus musculus with 9 samples.

Results

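Ventricles of fetal mice that lacked ERRg were compared with ventricles of fetal mice that kept 1 intact copy of the gene. The comparison used 6 of the 9 arrays of the series, namely 3 from ERRg -/- fetuses (KO) and 3 from ERRg +/- fetuses (HET), chosen by genotype alone. The other 3 arrays came from ERRg +/+ fetuses (WT) and served as a reference level and to estimate the spread between arrays. All fetuses were males at E18.5, shortly before birth, collected by caesarean section, and RNA from the cardiac ventricle was measured on Affymetrix arrays. The labels describe neither the altered allele nor the strain background, and they do not settle whether an array held 1 ventricle or a pool of 3. Each probe set gives 1 brightness value, called the signal, for each array. Of 18193 named genes, 13028 were bright enough to test, and a gene was called changed when its adjusted p in limma, a linear model fitted over all genes, was under 0.05. Differences are on the log2(signal + 16) scale, on which a low signal changes less than its plain ratio.

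ERRg, encoded by Esrrg, is an orphan nuclear receptor that binds DNA without a known natural hormone. With its relatives ERRa and ERRb and the coactivators PGC-1a and PGC-1b, it is known for switching on genes of mitochondrial respiration and fatty acid oxidation. The heart turns from glucose and lactate to fatty acids around birth, and the ERR proteins are among the factors known to drive that turn.

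Esrrg and Ntn1 fell in the KO ventricles relative to HET, and no other gene passed the test. The called share was 0.0154% of the genes tested, both with all arrays and with HET replicate 1 left out, and the same 2 genes were called both times. Without that array both stood at an adjusted p of 0.0468 in limma. Most other choices of filter, scaling or model then gave no call. No gene was called higher. By limma without adjustment, 626 genes (4.81%) had a p under 0.05, of which 275 were higher and 351 lower in KO. No tested gene of the respiratory chain, the citric acid cycle, fatty acid oxidation, the ion channel list or the sarcomere list was called. The precision bounds what could have been missed. The median 95% interval of a gene reached 0.36 log2 units to either side, and for 7631 genes (58.6%) the interval lay wholly within a 1.5-fold change in either direction.

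HET replicate 1 stood apart from the other 5 arrays, so many values are given with and without it. A value given alone comes from all arrays. Its median absolute difference from each of them was 0.229 to 0.253 log2 units, whereas all other pairs of HET and KO arrays differed by 0.167 to 0.189. Of 3 ratios of control probe sets, 2 placed it among the WT arrays. The log2 ratio of the thr to the dap spike-in, 2 bacterial RNAs added to every sample, was -0.89 there, -1.02 to -0.81 in WT, -1.33 and -1.24 in HET replicates 2 and 3, and -1.32 to -1.20 in KO. The log2 ratio of the 3′ to the 5′ Gapdh probe sets, a measure of RNA integrity, was -0.11 in HET replicate 1, -0.13 to -0.07 in WT and -0.21 to -0.16 in the other 5 arrays. The same ratio for Actb did not place it there: it was 0.48 in HET replicate 1, the lowest of the 9 arrays, 0.51 to 0.63 in WT and 0.56 to 0.64 in the other 5 arrays. The part of this array difference in each result below was not tested beyond leaving the array out.

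**Figure D1:**
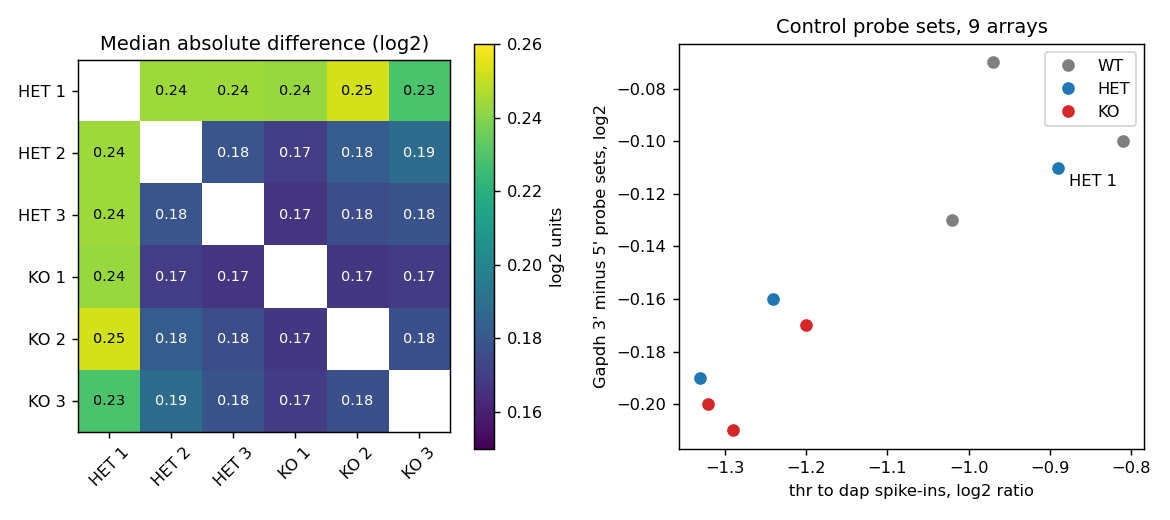
The left panel gives the median absolute log2 difference over the tested genes for each pair of HET and KO arrays, and the right panel plots the thr to dap spike-in ratio (x axis, log2) against the 3′ minus 5′ Gapdh difference (y axis, log2) for 9 arrays. HET replicate 1 differs from the other 5 arrays by 0.229 to 0.253 and lies among the WT arrays in the 2 ratios plotted; the Actb ratio, not plotted, was 0.48 there and 0.51 to 0.63 in WT.

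The targeted gene was read first. Esrrg had signals of 162, 164 and 162 in HET and of 58.3, 58.1 and 39.3 in KO, against 281, 213 and 206 in WT. The 3 genotypes did not overlap, and the KO mean was 31.9% of the HET mean, so a signal remained in KO. The difference was -1.41 ± 0.19 (SE), with a 95% interval of -1.80 to -1.02 and an adjusted p of 0.00862 in limma. Without HET replicate 1 it was -1.41 ± 0.21 (adjusted p = 0.0468 in limma). These values come from the brightest of 3 Esrrg probe sets. The other 2 were dim, with mean signals of 23.4 to 64.4 in HET and 32.1 to 33.1 in KO, and differences of -0.75 ± 0.42 and 0.31 ± 0.36 that were not called. The gene spans chr1:187608510-188214885 (GRCm38.p6), and which of its exons each probe set reads was not analysed here.

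Ntn1 encodes netrin-1, a secreted laminin-related protein known for guiding axons and for acting on epithelia and vessels. The gene lies at chr11:68209364-68386826 (GRCm38.p6). Its signals were 1550, 1464 and 1405 in HET and 794, 895 and 1004 in KO, against 1911, 1742 and 1769 in WT. All 3 KO arrays lay below all 3 HET arrays, which lay below all 3 WT arrays. The KO minus HET difference was -0.71 ± 0.09 (interval -0.91 to -0.51, adjusted p = 0.00862 in limma), and without HET replicate 1 it was -0.67 ± 0.10 (adjusted p = 0.0468). A second, dimmer Ntn1 probe set gave mean signals of 194 in HET and 131 in KO, a difference of -0.51 ± 0.21 that was not called (adjusted p = 0.999 in limma over all probe sets). In ventricle RNA taken whole, less RNA per cell and fewer cells that make it cannot be told apart.

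Both calls depended on the settings. With the same arrays, both were lost in limma without the intensity trend (adjusted p = 0.178 for Esrrg and 0.36 for Ntn1), with a gene's probe sets averaged (0.797 and 0.565) and with each array shifted to 1 median (0.0736 and 0.121). Leaving out HET replicate 2, HET replicate 3, KO replicate 1 or KO replicate 2, one at a time, took both genes past an adjusted p of 0.05 in limma, with values of 0.0516 to 0.0726 for Esrrg and 0.0651 to 0.104 for Ntn1, and no call then remained. The differences themselves stayed between -1.48 and -1.27 for Esrrg and between -0.79 and -0.63 for Ntn1 whichever array was left out. For a single gene, the exact two-sided permutation test of 3 arrays against 3 cannot go below 0.1, which is the value both genes had.

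Over all genes, 1367 (10.5%) had KO and HET signals that did not overlap, with 747 (5.73%) lower and 620 (4.76%) higher in KO. The genes of smallest p on each side of this set are described next, as values that were not called. The smallest adjusted p after Esrrg and Ntn1 was 0.102.

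**Figure D2:**
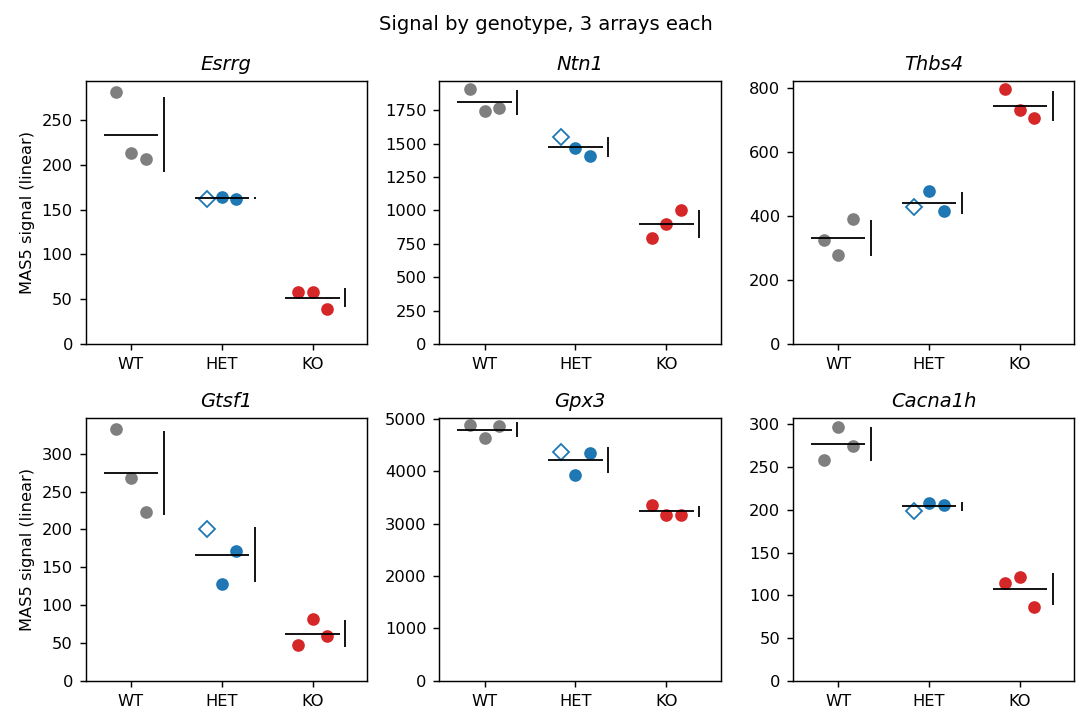
Signal (linear, y axis) of the 6 genes with the smallest p by genotype, 1 point for each array, with the mean (horizontal line) and the SD (vertical line, n = 3). HET replicate 1 is the open diamond. KO arrays lie apart from HET arrays in each panel, and only Esrrg and Ntn1 passed the test.

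Among genes higher in KO, Thbs4 came closest to the threshold. It encodes thrombospondin-4, a matrix protein known to be induced in stressed heart. Its signals were 429, 479 and 416 in HET and 796, 732 and 705 in KO, against 325, 280 and 391 in WT, and the KO arrays lay above all others. The difference was 0.73 ± 0.13 (adjusted p = 0.102 in limma), and 0.71 ± 0.14 without HET replicate 1 (adjusted p = 0.317). It was called with array quality weights (adjusted p = 0.0454) and without WT replicate 3 (adjusted p = 0.0483).

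Gtsf1, which encodes a zinc-finger protein known from the piRNA pathway of germ cells, had signals of 200, 128 and 172 in HET and 46.8, 81.3 and 58.8 in KO, against 333, 268 and 223 in WT. Its difference was -1.23 ± 0.21 (adjusted p = 0.102 in limma) and -1.09 ± 0.23 without HET replicate 1 (adjusted p = 0.48). Gpx3, a secreted glutathione peroxidase, was among the brightest of these genes. Its signals were 4362, 3935 and 4337 in HET and 3357, 3164 and 3172 in KO, against 4879, 4634 and 4861 in WT. The difference of -0.38 ± 0.07 (adjusted p = 0.11) was -0.35 ± 0.07 without HET replicate 1. For both genes the KO arrays lay below every HET and WT array.

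Cacna1h and Kcne1, both on the ion channel list, were also among the genes named on the lower side. Cacna1h, the pore of the T-type calcium channel Cav3.2, had signals of 198, 208 and 206 in HET and 114, 122 and 86.2 in KO, against 258, 297 and 275 in WT. The 3 genotypes did not overlap, and the difference was -0.84 ± 0.15 (adjusted p = 0.117 in limma), or -0.86 ± 0.17 without HET replicate 1 (adjusted p = 0.339). Kcne1, which modifies the potassium channel KCNQ1 to carry the slow repolarising current, had signals of 2005, 2026 and 2121 in HET and 1621, 1234 and 1675 in KO. Its difference was -0.45 ± 0.10 (adjusted p = 0.792), and a second Kcne1 probe set gave -0.49 ± 0.12, also not called. Over the whole list of 27 tested ion channel genes, 15 were higher and 12 lower in KO with a median of 0.02, and none was called. Of the 27, 4 had an unadjusted p under 0.05 in limma, beside 4.81% over all genes. Cacna1h, Kcne1 and Kcne3, a relative of Kcne1 (-0.61 ± 0.22), were lower. Kcnj5, a subunit of the acetylcholine-gated potassium channel, was higher (0.29 ± 0.13).

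The remaining genes named on the lower side were Olfml2b (-0.49 ± 0.11), Clybl (-0.39 ± 0.10) and Tmem44 (-1.13 ± 0.25), besides Shh, Pitx1 and Syn3, which were dim. Clybl encodes a mitochondrial lyase that acts on citramalyl-CoA. It had signals of 760, 708 and 683 in HET and 565, 497 and 569 in KO. Pitx1, a homeobox gene of hindlimb and pituitary, had signals of 57.6, 42.1 and 33.6 in HET and 5.95, 1.56 and 4.17 in KO, near the lower end of the scale, where the filter level was a signal of 21.7. The difference was -1.33 ± 0.32 for Shh, a secreted morphogen, and -1.53 ± 0.38 for Syn3, a synapsin of nerve terminals. A second probe set of Shh pointed the other way, with mean signals of 21.8 in HET and 40.8 in KO. A second, dimmer Pitx1 probe set had mean signals of 18.7 in HET and 14.6 in KO (-0.11 ± 0.38). With its probe sets averaged, Pitx1 fell below the filter.

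On the higher side, Sct, the gene for the gut hormone secretin, showed the largest difference of those named. Its signals were 8.85, 8.5 and 18.2 in HET and 54, 86 and 94.2 in KO, a difference of 1.75 ± 0.41 that was not called (adjusted p = 0.86 in limma). The WT signals were 10.8, 9.29 and 49, so 1 WT array lay near the lowest KO array. All HET signals and the other WT signals lay below the filter level, a signal of 21.7, so Sct passed the filter through its KO arrays. Its size depended on the pseudocount added to the signal, with 2.66 for a pseudocount of 1 and 0.90 for 64. Myl1, an essential light chain of fast skeletal myosin, had signals of 1330, 1834 and 1984 in HET and 3114, 3506 and 2183 in KO. Its difference was 0.76 ± 0.19, or 0.59 ± 0.19 without HET replicate 1. Eprs, which charges the tRNAs of glutamate and proline, had signals of 396, 485 and 430 in HET and 618, 653 and 635 in KO, a difference of 0.53 ± 0.15.

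Car3, a carbonic anhydrase of muscle and fat, differed by 0.70 ± 0.19 on its brightest probe set, while its 3 dimmer ones gave -0.55, 0.26 and -0.17. Lpar1, a receptor for lysophosphatidic acid, differed by 0.42 ± 0.12 with all arrays and by 0.55 ± 0.11 without HET replicate 1 (adjusted p = 0.339 in limma). Tyrobp, a signalling adaptor of myeloid cells, differed by 0.63 ± 0.18, and the summed signal of 13 macrophage markers on the array was 2624 to 3143 in HET and 2630 to 3268 in KO. The part of macrophage content in the Tyrobp value was not tested. Itm2a, a membrane protein, differed by 0.35 ± 0.10 with all arrays and by 0.19 ± 0.06 without HET replicate 1, the lowest of the 3 HET arrays. The other 4 were Mllt3 (0.87 ± 0.26), Lrrc3b (0.47 ± 0.14), Aldh1l2 (0.46 ± 0.14) and Arfgap2 (0.40 ± 0.10). A second Mllt3 probe set, with mean signals of 93.9 in HET and 87.5 in KO, gave -0.08 ± 0.36. A second bright Arfgap2 probe set gave -0.04 ± 0.10, and averaging the gene's probe sets turned its sign to -0.0055.

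All 24 named genes kept their direction without HET replicate 1. The selection fixed this, since genes whose KO and HET signals do not overlap cannot change direction when 1 array is left out. Averaging a gene's probe sets moved other named values by over 1.5 times as well, from 0.70 to 0.06 for Car3, 0.87 to 0.34 for Mllt3, 0.42 to 0.27 for Lpar1, -1.33 to -0.34 for Shh, -1.53 to -0.76 for Syn3 and -1.13 to -0.52 for Tmem44. For 14 of the 24, the HET mean lay between the KO and WT means. The 24 were chosen on their KO and HET values and the share over all genes was not computed, so this count gives no ordering by gene copies. Large differences on the scale used were mostly seen in dim genes. Of 57 genes with at least a 2-fold difference on that scale, 11 were higher and 46 lower in KO. Only 3 of the 57 had a mean over the HET and KO arrays, taken on that scale, at or above a signal of 100.

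**Figure D3:**
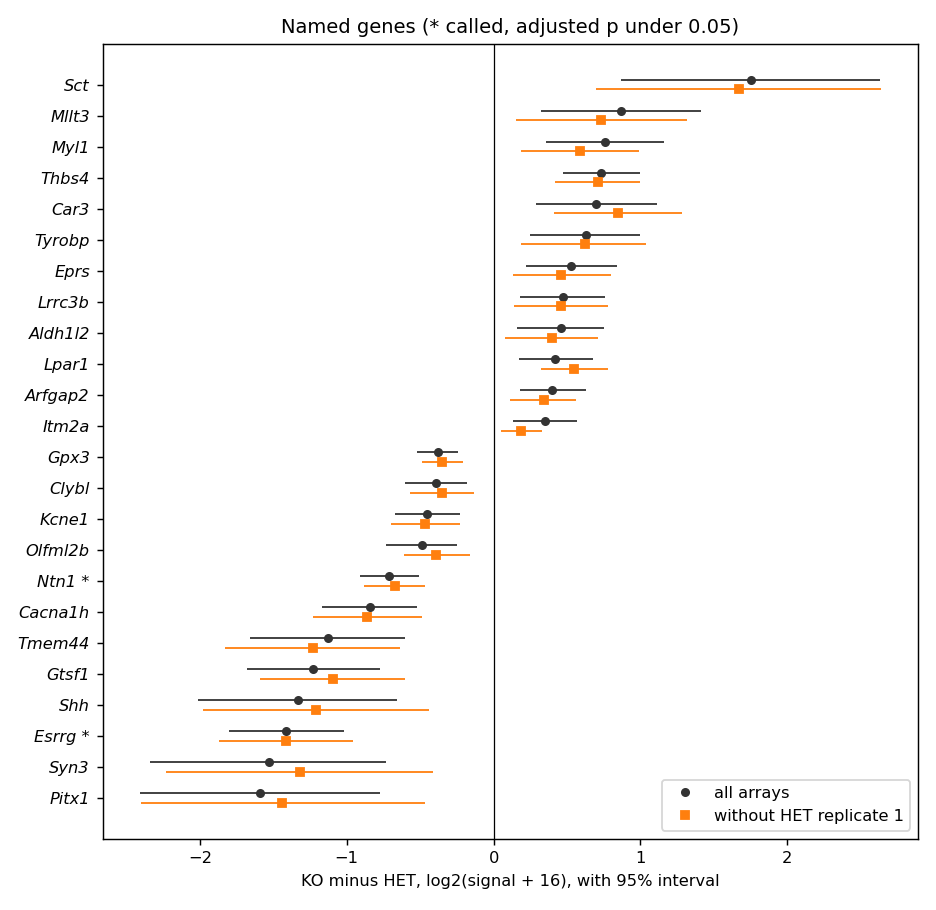
KO minus HET difference (x axis, log2(signal + 16)) with its 95% interval for the 24 named genes (y axis), from all arrays (circles) and without HET replicate 1 (squares). Asterisks mark Esrrg and Ntn1, the genes called. Every gene keeps its side of 0 in both sets, which follows from choosing genes whose KO and HET signals do not overlap.

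Neither of the other ERR receptors was called. Esrra, which encodes ERRa, had signals of 620, 942 and 931 in HET and 904, 882 and 685 in KO. Its difference was 0.0017 ± 0.15 with an interval of -0.33 to 0.33, and -0.19 ± 0.13 without HET replicate 1. Esrrb, which encodes ERRb, had signals of 135, 139 and 148 in HET and 152, 129 and 165 in KO, with a difference of 0.07 ± 0.18 and an interval of -0.32 to 0.45. For both genes the HET and KO arrays overlapped.

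Among 18 tested partners and coactivators of the ERR proteins, 9 were higher and 9 lower in KO and none was called. Perm1, a muscle protein that is induced by PGC-1 and ERR and promotes mitochondrial genes, had signals of 539, 385 and 423 in HET and 326, 288 and 349 in KO. That was a difference of -0.45 ± 0.14, and -0.32 ± 0.14 without HET replicate 1, with KO below every HET array. Ppara, the fatty acid receptor that shares targets with ERR, had signals of 343, 346 and 307 in HET and 250, 264 and 243 in KO (-0.37 ± 0.15). Ppargc1a, the gene of PGC-1a, differed by -0.16 ± 0.10. Hif1a, the oxygen-regulated transcription factor, had 1022, 1770 and 1574 in HET and 1847, 2051 and 1813 in KO. Its difference of 0.42 ± 0.14 came down to 0.19 ± 0.09 without HET replicate 1, whose signal was the lowest of the 6.

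The respiratory chain, the best known target set of ERRg, differed little between KO and HET. Of 75 tested genes of oxidative phosphorylation, none was called and none had an unadjusted p under 0.05 in limma. The differences ran from -0.18 to 0.25, and for 74 of the 75 the 95% interval lay within a 1.5-fold change. With all arrays, 24 were higher and 51 lower in KO (median -0.03). Without HET replicate 1 the split was 48 higher and 27 lower (median 0.02), so which direction held most genes depended on that array. Shifting each array to 1 common median raised the median of all genes from -0.0077 to 0.07 and that of this list to 0.05, so values under that shift are to be read against 0.07. For 5 genes the KO signals lay wholly below those of HET, which is 5 of 75 beside 5.73% over all genes.

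In complex I, which takes electrons from NADH, 8 of 33 were higher and 25 lower with all arrays (median -0.05), and 21 higher and 12 lower without HET replicate 1 (median 0.02). Ndufb8 gave the lowest p of the complex, with signals of 11225, 8728 and 9561 in HET and 8230, 9005 and 8724 in KO, a difference of -0.18 ± 0.09 that was -0.08 ± 0.08 without HET replicate 1. Sdhb, the iron-sulfur subunit of complex II, differed by -0.10 ± 0.06. Cyc1, the cytochrome of complex III, differed by -0.07 ± 0.06, and Cox8a of complex IV by -0.13 ± 0.08. Atpif1, the inhibitor of ATP synthase, differed by 0.14 ± 0.09. Cox6a2, the heart and muscle form of a complex IV subunit, had signals of 11518, 11784 and 11473 in HET and 11587, 10656 and 11256 in KO (-0.05 ± 0.06).

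Fatty acid oxidation lay lower in more of its genes than it lay higher, at small size. Of 22 tested genes, 18 were lower and 4 higher in KO (median -0.09), and none was called. With all arrays, 6 (27.3%) had an unadjusted p under 0.05 in limma, all of them lower, beside 2.69% lower over all genes. Without HET replicate 1, 17 were lower and the median was -0.04. Shifting each array to 1 median gave -0.01, beside 0.07 for all genes. In 8 of the 22 the KO signals lay below all HET signals, beside 5.73% over all genes.

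Hadha, the alpha subunit of the trifunctional protein of long-chain oxidation, had signals of 4027, 3592 and 3515 in HET and 3008, 3311 and 3087 in KO. Its difference was -0.24 ± 0.07, or -0.18 ± 0.07 without HET replicate 1. Eci1, which moves the double bond of unsaturated fatty acids, differed by -0.22 ± 0.07. Fabp3, the fatty acid carrier of heart muscle, had signals of 18952, 17121 and 17364 in HET and 16070, 15829 and 16329 in KO. That was -0.15 ± 0.06, and -0.10 ± 0.05 without HET replicate 1. For these genes KO lay below each HET array without a call.

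Genes around pyruvate dehydrogenase and the citric acid cycle differed little in size. Of 23, 16 were lower and 7 higher (median -0.03), and the intervals of all 23 lay within a 1.5-fold change. Without HET replicate 1, 14 were lower and 9 higher (median -0.04). With arrays shifted to 1 median the list median was 0.05, beside 0.07 for all genes. With all arrays, 3 had an unadjusted p under 0.05 in limma, all of them lower, beside 2.69% lower over all genes. No gene of the list was called. Pdhx, a structural part of the pyruvate dehydrogenase complex, had signals of 1240, 1182 and 1174 in HET and 1023, 1023 and 1058 in KO (-0.21 ± 0.08). Pdk2 and Pdk1, kinases that switch the complex off, differed by -0.19 ± 0.09 and -0.20 ± 0.10. In glycolysis and glucose uptake, 18 of 20 were lower and 2 higher with all arrays (median -0.06), and 14 lower and 6 higher without HET replicate 1 (median -0.01). Shifting the arrays to 1 median gave that list 0.02, beside 0.07 for all genes. Pfkl, a phosphofructokinase, differed by -0.19 ± 0.08, and Slc2a4, the insulin-responsive glucose transporter, by -0.12 ± 0.11.

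Energy transfer genes carry high-energy phosphate from mitochondria to myofibrils. Of 14 tested, 9 were lower and 5 higher (median -0.05), with no call. With arrays shifted to 1 median the list median was 0.03, beside 0.07 for all genes. Ckmt2, the sarcomeric mitochondrial creatine kinase, stood lowest, with signals of 999, 921 and 1073 in HET and 793, 657 and 762 in KO, against 1430, 1852 and 1495 in WT. The 3 genotypes did not overlap. The KO minus HET difference was -0.43 ± 0.11 with and -0.43 ± 0.12 without HET replicate 1, and it was not called (adjusted p = 0.947 in limma).

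Genes that build mitochondria gave no call. Of 75 genes of the mitochondrial ribosome, 49 were lower and 26 higher with all arrays (median -0.04), and 38 lower and 37 higher without HET replicate 1. The interval of each of the 75 lay within a 1.5-fold change. Of 31 genes of import and biogenesis, 16 were lower and 15 higher. Tomm20, a receptor of the outer membrane, had signals of 2477, 3981 and 3963 in HET and 4157, 4267 and 3737 in KO. Its difference was 0.25 ± 0.14 with all arrays and 0.03 ± 0.08 without HET replicate 1, which was the low array. Of 21 antioxidant genes, 11 were lower and 10 higher, and Gpx3 had the smallest p of that list.

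**Figure D4:**
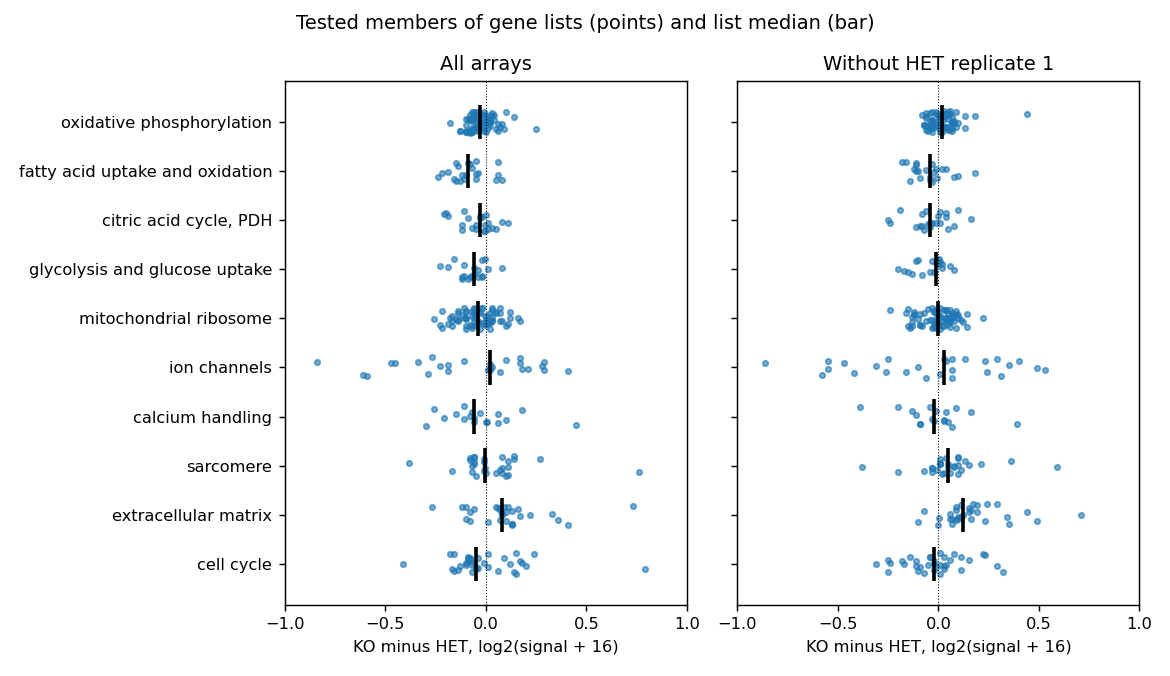
KO minus HET difference (x axis, log2(signal + 16)) of each tested gene (points) and the median (bar) for 10 gene lists (y axis), from all arrays on the left and without HET replicate 1 on the right. The median of the 75 oxidative phosphorylation genes is -0.03 on the left and 0.02 on the right.

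Contraction and calcium genes split both ways. Of 18 calcium handling genes, 11 were lower and 7 higher (median -0.06) and none was called. With arrays shifted to 1 median the list median was 0.02, beside 0.07 for all genes. Trdn, the triadin that anchors calsequestrin to the release channel, had signals of 652, 1457 and 1349 in HET and 1499, 1531 and 1451 in KO. The difference was 0.45 ± 0.20 with all arrays and 0.09 ± 0.09 without HET replicate 1. Casq2, the calsequestrin of the heart, went from -0.21 ± 0.09 to -0.09 ± 0.07 in the same way. Of 29 sarcomere genes, 14 were higher and 15 lower with all arrays (median -0.0024), and 22 higher and 7 lower without HET replicate 1 (median 0.05). Tnnt1, the slow skeletal troponin T, differed by -0.38 ± 0.15, opposite to Myl1.

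Genes of the fetal and stress program gave small values. Nppa, the atrial natriuretic peptide, had signals of 14523, 13746 and 13390 in HET and 16161, 15246 and 14901 in KO, against 13206, 12999 and 12959 in WT. Its difference was 0.15 ± 0.06 with KO above each HET array, and it was not called. Myh7, the fetal myosin heavy chain, differed by -0.07 ± 0.06, and Myh6, the adult one, by 0.08 ± 0.06. Timp1, an inhibitor of matrix proteases, had signals of 233, 204 and 224 in HET and 266, 311 and 317 in KO (0.41 ± 0.14). Of the 11 tested genes of this list, 6 were higher and 5 lower.

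Extracellular matrix genes lay higher in KO in most cases. Of 31 tested, 24 were higher and 7 lower with all arrays (median 0.08), and 28 were higher and 3 lower without HET replicate 1 (median 0.12). The median was 0.09 under quantile normalization, beside -0.0054 for all genes, and 0.16 with arrays shifted to 1 median, beside 0.07 for all genes. None was called. With all arrays, 4 (12.9%) had an unadjusted p under 0.05 in limma (Thbs4, Timp1, Col15a1 and Lum, all higher), beside 2.11% higher over all genes. KO signals lay above all HET signals for 5, beside 4.76% over all genes. Col15a1, a basement membrane collagen, differed by 0.33 ± 0.13. Lum, the proteoglycan lumican, had signals of 2054, 1988 and 2087 in HET and 2248, 2170 and 2483 in KO (0.17 ± 0.08).

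Fibroblast markers were also mostly higher in KO, without a call. Of 12, 11 were higher and 1 lower (median 0.09, and 0.12 without HET replicate 1), and their summed signal was 36974 to 42261 in HET, 41671 to 43715 in KO and 37257 to 41997 in WT. Several genes, such as Lum, Postn and Dcn, belong to both lists. The part of fibroblast content in the matrix values was not tested. Markers of ventricular muscle were near level, with 4 of 12 higher and 8 lower with all arrays, and 8 higher and 4 lower without HET replicate 1, and all 12 were above the filter. Markers of liver and lung were mostly below the filter (5 of 8 and 6 of 8), among them Afp, Apoa1 and Sftpb. With those dim markers included, the summed liver signal was 223 to 353 in HET, 183 to 213 in KO and 192 to 239 in WT. For lung it was 153 to 209 in HET, 93.9 to 144 in KO and 92.6 to 121 in WT. Both HET ranges lay above the KO ranges, and the part of such tissue in the named values was not tested.

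Epicardial markers had the lowest median of the heart's own cell types, -0.26 with 8 of 12 lower, and -0.27 with 11 of 12 lower without HET replicate 1. Their summed signal was 1965 to 2185 in HET and 1490 to 2072 in KO, against 1202 to 1843 in WT, and the KO range overlapped both. Aldh1a2, which makes retinoic acid, had signals of 272, 226 and 313 in HET and 176, 212 and 229 in KO (-0.37 ± 0.15), and none of the 12 was called. Erythroid markers had a summed signal of 1464 to 2002 in HET and 1949 to 2379 in KO, with 4 of the 10 on the array below the filter. Of the 6 tested, 5 were higher and 1 lower (median 0.25, and 0.23 without HET replicate 1), and none was called. With all arrays, 2 (33.3%) had an unadjusted p under 0.05 in limma, both higher, beside 2.11% higher over all genes. Kdr, the VEGF receptor of endothelium, had signals of 1095, 881 and 682 in HET and 666, 623 and 675 in KO (-0.40 ± 0.14, and -0.24 ± 0.12 without HET replicate 1), while the 14 endothelial markers together split into 6 higher and 8 lower.

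Ntn1 was also set beside other guidance genes, ligands and receptors of the netrin, semaphorin, slit and ephrin families. Of 23 tested, 14 were higher and 9 lower (median 0.08), and Ntn1 alone was called. Sema3c, a ligand of cardiac neural crest, differed by 0.23 ± 0.16, and Robo1, a slit receptor, by 0.39 ± 0.27, both with overlapping arrays.

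ERR proteins bind the extended half-site TCAAGGTCA, so promoters were searched for it and for its core AAGGTCA on both strands. The windows are those of RefSeq on GRCm38.p6 and run from 250 bases before to 50 bases after each start. The core lies inside the full motif, so each full match also counts as a core match. Of the 13028 tested genes, 10441 had a window. The full motif was in 36 of them (0.345%) and the core in 403 (3.86%). The following sequences are shown because their genes carry a match and span the outcomes, from no difference to the largest named one. They read 5′ to 3′ on the gene's strand, and capitals mark the match.
Atp5g3, chr2:73911327-73911576, minus strand: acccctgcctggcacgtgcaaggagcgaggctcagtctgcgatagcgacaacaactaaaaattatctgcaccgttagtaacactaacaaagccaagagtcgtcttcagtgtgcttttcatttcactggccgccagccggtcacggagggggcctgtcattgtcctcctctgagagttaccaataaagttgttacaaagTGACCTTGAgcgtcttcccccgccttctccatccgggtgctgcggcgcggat
Perm1, chr4:156215677-156215926, plus strand: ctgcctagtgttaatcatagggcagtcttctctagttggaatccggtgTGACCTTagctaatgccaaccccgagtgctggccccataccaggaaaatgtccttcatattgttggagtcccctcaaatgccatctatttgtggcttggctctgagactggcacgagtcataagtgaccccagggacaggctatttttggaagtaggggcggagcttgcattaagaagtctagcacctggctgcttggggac
Sct, chr7:141279134-141279383, minus strand: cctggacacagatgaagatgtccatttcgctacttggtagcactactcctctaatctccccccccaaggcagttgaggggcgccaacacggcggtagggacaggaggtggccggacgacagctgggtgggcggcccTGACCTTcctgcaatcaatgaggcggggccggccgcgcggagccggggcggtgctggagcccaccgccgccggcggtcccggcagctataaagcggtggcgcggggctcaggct
Timm8b, chr9:50603795-50603824, plus strand: tttcgagggcTCAAGGTCActctacaaccc

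Atp5g3, a subunit of the ATP synthase ring, has the full motif on the opposite strand at position -52 from its start. Its signals were 17999, 18857 and 17905 in HET and 17671, 19793 and 17773 in KO, a difference of 0.01 ± 0.06 with an interval of -0.11 to 0.13. Timm8b, a chaperone of mitochondrial import, has the full motif at -96, and the same bases lie at 37 after the start of Sdhd, which is read from the other strand. Timm8b differed by -0.09 ± 0.09 and Sdhd, a membrane anchor of complex II, by 0.03 ± 0.07. Perm1 has only the core, at -202, beside a difference of -0.45 ± 0.14. Sct has only the core, at -114, beside 1.75 ± 0.41, with HET signals below the filter level.

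Over the 36 genes with the full motif, 17 were higher and 19 lower in KO, with a median of -0.04 and a range of -0.69 to 0.49. None was called by limma and none had an unadjusted p under 0.05. Of the 403 genes with the core, 22 (5.46%) had an unadjusted p under 0.05 in limma, beside 4.81% over all genes. Of the 12 genes named on the lower side, 6 had a window and none of those held the core, and Ntn1 was among those without a window. Of the 12 on the higher side, 9 had a window and 1 held the core. In oxidative phosphorylation, 63 of 75 genes had a window, of which 8 (12.7%) held the core and 2 (3.17%), Atp5g3 and Sdhd, the full motif. A match of letters is a description of the window and does not show that a protein binds there.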

How the data were processed

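Total RNA of the ventricles was hybridised to 1-colour Affymetrix arrays of 45101 probe sets, 1 array for each sample. The deposited intensity values are linear signals computed by the authors with MAS5, per the submitters' processing notes, and their 2% trimmed mean is 200.0 on every array, so the arrays share 1 scale. Its version is not given here. Scanner files were not used here, so the background and scaling steps were taken as deposited. Probe sets that name 1 gene (34945 of 45037 without controls) were named through the platform annotation and RefSeq, the brightest probe set of each gene was kept, log2(signal + 16) was taken, and genes whose mean was under the 40th percentile of all probe sets (5.24) were left out, 5165 in all. Limma 3.58.1 in R 4.3.3 fitted the 3 genotypes over 9 arrays with an intensity trend and Benjamini-Hochberg adjustment, and the script was tested on simulated data. The number of arrays limits the precision. Samples of a genotype are labelled as biological replicates, but whether an array held a single ventricle or a pool is not settled. For that reason p-values reflect only how these arrays vary. How much of that spread is technical was not tested.

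Named genes were Esrrg, up to 12 genes in each direction by call or, after those, by smallest p among genes whose KO and HET signals do not overlap, the ERR family, and up to 4 of smallest p in each gene list. Genes outside that rule, such as Cox6a2, Slc2a4, Atp5g3 and Timm8b, were chosen after their values were seen. The comparison, the gene lists and these rules were chosen with earlier results of these data known. Deviations of same-numbered HET and KO arrays from their group means correlated at -0.04, 0.03 and -0.03 across genes, so the numbers were not taken to pair arrays. Alternatives were other pseudocounts, filters, probe set rules, scalings, weights and blocks, and leaving out each array; those on single probe sets, on the spike-in pattern and on the comparison without HET replicate 1 were added after the data were seen.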

Additional observations from a re-analysis of the deposited data

How the results depend on the processing

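With all arrays, 2 genes were called, both lower in KO. That number and the number lower were 1 when each probe set was tested on its own (Ntn1), and 0 with the probe sets of a gene averaged, without the intensity trend, with only the 6 HET and KO arrays, and with each array shifted to 1 median. Leaving out 1 array gave 0 to 3 calls in all, 0 to 3 lower and 0 to 1 higher; the third was Cryl1 (-2.05, adjusted p = 0.0359 in limma) without KO replicate 3. Array quality weights gave 1 call higher (Thbs4), as did leaving out WT replicate 3. With the replicate number as a block, which pairs arrays only by number, 2 genes were called with all arrays (adjusted p = 0.0297 for Esrrg and 0.0411 for Ntn1 in limma). Without HET replicate 1, the number called went from 2 to 0 with the 60th percentile filter, no filter, the mean of probe sets, no trend, only the HET and KO arrays, pseudocounts of 1 and 64, quantile normalization, the replicate block and the shift to 1 median, and to between 0 and 1 when a further array was left out. The cause of these losses was not tested. Where arrays were left out, the number of arrays was smaller as well.

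Esrrg lost its call on its own probe set among all probe sets (-1.41, adjusted p = 0.0678 in limma), with the mean of probe sets (-0.62, 0.797), without the trend (-1.41, 0.178), with 6 arrays (-1.41, 0.0555) and with the shift (-1.33, 0.0736). Ntn1 lost its call with the mean of probe sets (-0.61, 0.565), without the trend (-0.71, 0.36), with 6 arrays (-0.71, 0.0555) and with the shift (-0.63, 0.121). Leaving out 1 array gave -1.48 to -1.27 for Esrrg and -0.79 to -0.63 for Ntn1. Arfgap2 reversed to -0.0055 with the mean of probe sets. Of 523 values of the 24 named genes, 503 kept direction and side of the threshold, 17 lost a call and 2 gained one. All 17 losses were of Esrrg and Ntn1, and for the other named genes the same side mostly meant still not called. Much of this was fixed in advance. Leaving out a WT array or the trend cannot change a difference, and genes without overlap cannot reverse when 1 array is left out. Of 638 list medians, 53 moved by more than the spread between arrays; the shift raised the median of all genes from -0.0077 to 0.07. With 3 arrays a group, the median 95% interval reached 0.36 to a side.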

Other observations

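Other gene groups gave no call either, by limma with all arrays. Of 35 cell cycle genes, 13 were higher and 22 lower in KO (median -0.05). With each array shifted to 1 median the list median was 0.02, beside 0.07 for all genes. Mcm5, a subunit of the replicative helicase, differed by 0.24 ± 0.10 and Kif23, a kinesin of cytokinesis, by -0.41 ± 0.14. Of 25 genes of the integrated stress response and tRNA charging, 11 were higher and 14 lower. Psat1, an enzyme of serine synthesis, had signals of 660, 708 and 705 in HET and 860, 899 and 723 in KO (0.25 ± 0.11). Of 15 hypoxia targets, 5 were higher and 10 lower (median -0.03), beside the higher Hif1a signal.

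Of 20 immediate early genes, 11 were higher and 9 lower, and Fos had signals of 169, 216 and 87.6 in HET and 228, 217 and 228 in KO (0.55 ± 0.24). Of 18 heat shock genes, 8 were higher and 10 lower. Cytosolic ribosome genes numbered 10 higher and 23 lower of 33 (median -0.03). Lysosome and autophagy genes numbered 14 higher and 11 lower of 25. Smooth muscle and pericyte markers numbered 7 higher and 3 lower of 10, with Cnn1, a smooth muscle calponin, at 897, 772 and 923 in HET and 1083, 1061 and 1073 in KO (0.31 ± 0.11). Atrial markers split into 5 higher and 5 lower, skeletal muscle markers into 5 and 3, and macrophage markers into 5 and 7. Without HET replicate 1 these splits were 6 and 4, 7 and 1, and 7 and 5. Neural crest and Schwann markers had 3 tested genes, 1 higher and 2 lower.

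Of 48 tested genes other than Esrrg with their midpoint within 5 Mb of it on chromosome 1, 22 were higher and 26 lower in KO (median -0.02). None was called, and 4 had an unadjusted p under 0.05 in limma (Eprs, Sertad4, Rd3 and Mia3), beside 4.81% over all genes. KO and HET signals did not overlap for 5 higher and 4 lower of the 48, beside 4.76% and 5.73% over all genes. Within 5 Mb of Ntn1 on chromosome 11, 5 of 131 had such a p, and 4 higher and 9 lower did not overlap.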
